A study of Mus musculus with 3 samples.

Results

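Langerhans cells are the antigen-presenting cells that live in the epidermis. The comparison described here set Langerhans cells from mouse ear skin treated with croton oil against those from untreated ear skin, gene by gene. Cells were taken by their own transcripts: at least 500 genes, at most 10% mitochondrial UMIs (unique molecular identifiers, each standing for 1 captured RNA molecule), at least 2% of UMIs from Cd74, H2-Aa, H2-Ab1 and H2-Eb1, at least 2 Epcam UMIs, fewer than 3 UMIs of Cd3e, Cd3g and Cd3d together, under 0.1% of UMIs from S100a8 and S100a9, under 0.1% from Krt14, Krt5, Krt1 and Krt10, and no Ccr7 UMI. Cells with a Ccr7 UMI were left out because Ccr7 is the chemokine receptor that guides Langerhans cells out of the skin, so the cells compared are those in which Ccr7 was not detected. This rule kept 9345 untreated and 5868 croton oil cells, 15213 of the 25062 barcodes in the 3 libraries of the series. The genes named in the rule were used to choose the cells, and their levels are not results here.

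All animals were male mice of the strain given as Cd1, an outbred stock. The controls had received a depilatory cream (Nair) alone. The treated ears had received croton oil mixed with acetone and olive oil, and cells were prepared 48 hours after the first treatment. The remaining library of the series came from ears punched repeatedly with microneedles, also prepared at 48 hours. In all groups the epidermis was detached with trypsin, dissociated mechanically, freed of dead cells on magnetic beads and enriched magnetically for Langerhans cells. Each group is 1 library, the labels do not say how many animals it holds, and a library with the acetone and olive oil alone is not analysed here. Croton oil, its vehicle, the animals and the library preparation therefore cannot be told apart in any difference given below, and no test between groups is possible. Intervals printed beside values are 95% intervals (exact Poisson for levels, exact Clopper-Pearson for shares of cells) and cover counting error only.

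Langerhans cells seed the epidermis before birth, renew themselves there, and depend on TGF-beta and on signals through the Csf1 receptor. They sample antigen through dendrites between the keratinocytes, carry the C-type lectin langerin (Cd207), and can move to the lymph node, where they meet T cells. Croton oil is a plant oil whose phorbol esters activate protein kinase C, and it has long been used to irritate mouse skin.

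As a whole, the cells carried their label's markers in both libraries, though Cd207 was not found in every cell. Cd207, which the rule did not use, stood at 572.8 CPM (counts of a gene scaled to equal library totals; interval 568.5 to 577.2) in untreated and 312.8 CPM (309 to 316.7) in croton oil cells. With every cell thinned to 3000 UMIs, the share of cells with a Cd207 UMI was 77.1% (76.3 to 78.0) in untreated and 45.1% (43.8 to 46.4) in croton oil cells, against 2.4% of the keratinocytes of the croton oil library, which should lack the gene. Without thinning, at least 1 Cd207 UMI was found in 9102 of the 9345 untreated and 4504 of the 5868 croton oil cells. The other 7 Langerhans cell markers that the rule did not use were all detected above 20 CPM in both libraries. Counting Cd207, 3 of these 8 markers were higher after croton oil, Mfge8, Cd24a and Csf1r, and the others were lower. Among the lower ones were Cdh1 (383.5 and 293.4 CPM) and Adgre1 (250.4 and 172.9 CPM). Cd207 itself was 1.83-fold lower after croton oil, just short of the 2-fold rule used below.

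The cells held 118898112 UMIs in the untreated and 80674993 in the croton oil library, with medians of 11646 and 12572 UMIs per cell and of 1.54% and 1.60% mitochondrial UMIs. They made up 95.1% of the untreated barcodes that passed the gene and mitochondrial limits and 71.9% of the croton oil ones. The croton oil library also held 203 neutrophils, 127 T cells and 143 keratinocytes, against 0, 1 and 80 in the untreated library. Cells with a Ccr7 UMI that met all other criteria numbered 19 (0.203%) in untreated and 360 (5.78%) in croton oil skin. The rule on Epcam removed 74 (0.753%) untreated and 202 (2.48%) croton oil barcodes that met every other criterion. At its edge, 55 untreated and 172 croton oil cells had exactly 2 Epcam UMIs, while 46 and 125 had 1 and were left out. The 2 libraries shared 32 barcodes, 20 of them among the cells compared.

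RNA of other cell types was measured in the Langerhans cells beside these results. The markers of keratinocytes that the rule did not use summed to 64.3 CPM in untreated and 95.7 CPM in croton oil cells, where 60.9 CPM were Lgals7 (17.5 CPM in untreated), and 4 of these 10 markers were higher after croton oil. The T cell markers summed to 228.3 and 936 CPM, nearly all of it Il7r, while the T cell receptor gene Trbc1 was at 0 in untreated and at 0.0744 CPM in croton oil cells, Trdc at 0.0252 and 0.322 CPM and Cd2 at 1.72 and 6.09 CPM. Of these 11 markers 7 were higher after croton oil, and Cd7 (6.54 and 2.86 CPM) and Lck (0.900 and 0.731 CPM) were among the lower. The neutrophil markers summed to 2679 and 2741 CPM, nearly all of it Il1r2, and Retnlg was at 0 and 1.59 CPM. Of these 10 markers 7 were higher after croton oil, while Cxcr2 (9.08 and 1.07 CPM) and Mmp9 (152 and 23.9 CPM) were among the lower. The macrophage and monocyte markers summed to 439.2 and 3023 CPM, with C1qa, C1qb, C1qc and Cd14 among the contributors, while Ly6c2, Ccr2, Fn1 and Plac8 each stayed under 1 CPM in both libraries. Free RNA was gauged from markers of the other cells: a typical keratinocyte marker stood in croton oil Langerhans cells at 0.00198 of its level in keratinocytes. A gene was held apart where its own ratio came within 3 times this typical ratio in keratinocytes, neutrophils or T cells. In the croton oil library keratinocyte markers ran from 0.000645 to 0.00791, against a limit of 0.00595. Neutrophil markers reached 1.92 and T cell markers 34. Some markers thus passed the rule themselves, so a pass does not tell where a gene's RNA came from. No macrophage or monocyte reference was used, so free RNA of such cells was not tested.

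In all, 6817 genes reached 20 CPM in at least 1 of the 2 libraries and were compared by the log2 ratio of their levels, with 5 CPM added to each so that low genes do not give extreme ratios; the change of a low gene is therefore understated. In the following, a gene "rose" or "fell" where this change was at least 2-fold, a fixed size and not a test. By this rule 368 genes (5.4%) rose and 375 (5.5%) fell after croton oil. A change of 4-fold or more was reached by 106 genes upward and 37 downward, and 68.4% of genes lay within 1.5-fold. The median change of all genes was −0.04 and the SD was 0.73. Under TMM scaling, which trims the most changed genes before setting the totals, 491 rose and 281 fell, so the share of higher among these genes was 63.6% and not 49.5%, and the median of all genes was 0.08. Of the genes that rose, 3 lay within the free-RNA limit, as did 2 that fell, and none of these 5 is named here. A gene can enter the comparison through the library in which it is high alone, so counts within gene lists are descriptions to be read beside these percentages.

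**Figure D1:**
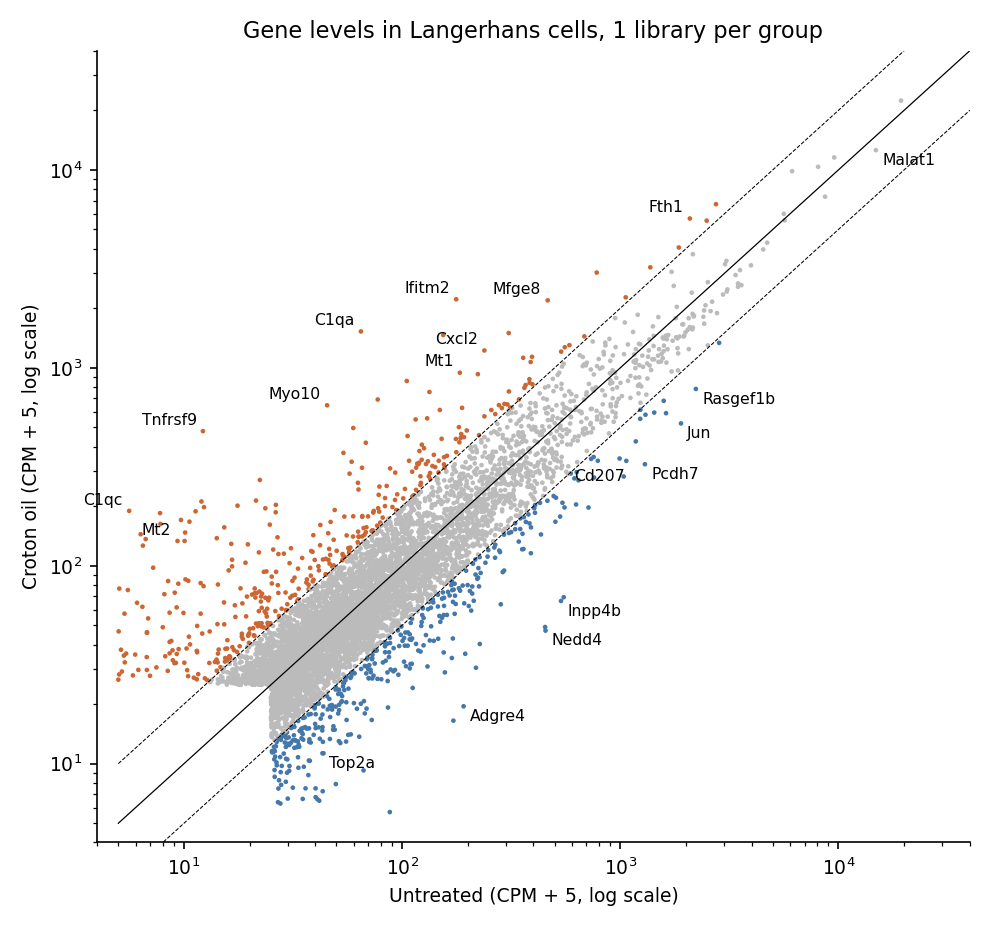
Level of each of the 6817 genes compared in untreated (x axis) and croton oil (y axis) Langerhans cells, in CPM + 5 on log axes; orange points rose and blue points fell at least 2-fold, the solid line marks equal levels and the dashed lines 2-fold. Genes such as Tnfrsf9, C1qa and Myo10 stand far above the upper dashed line, Nedd4, Inpp4b and Adgre4 far below the lower one, and most points lie between the lines.

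The complement component C1q, which coats dying cells and immune complexes and is made mainly by macrophages and dendritic cells, showed some of the largest rises. C1qa stood at 59.7 CPM (58.3 to 61.1) in untreated cells and at 1522 CPM (1514 to 1531) in croton oil cells. C1qc went from 0.606 CPM (0.474 to 0.763) to 184.4 CPM (181.5 to 187.4). C1qb went from 0.0505 CPM, which is 6 UMIs in all untreated cells, to 71.7 CPM (69.9 to 73.6). The 3 chains are assembled into 1 protein, and all 3 were near 0 or low in untreated cells and clearly present after croton oil, with log2 changes of 4.56, 5.08 and 3.92. Their genes neighbour each other on the minus strand of chromosome 4 in the GRCm39 build, C1qb at 136606009 to 136613511, C1qc at 136616466 to 136620376 and C1qa at 136623223 to 136626161. The share of thinned cells with a C1qa UMI was 15.0% (14.2 to 15.7) in untreated and 90.4% (89.6 to 91.1) in croton oil cells, against 5.6% of keratinocytes, 6.03% of neutrophils and 3.25% of T cells in the same library. Per positive cell, C1qa gave 1.19 UMIs in untreated and 5.49 UMIs in croton oil cells, so the level per positive cell differed as well as the share. Properdin (Cfp), which stabilises the alternative complement pathway, rose from 58.1 to 237.8 CPM. Of 16 listed complement genes and regulators 7 were compared, and these 4 rose and none fell. The summed level of all 16 was 7.45-fold higher.

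Other genes best known from macrophages moved in the same direction, though not all of their kind did. Timd4, a receptor for phosphatidylserine on dying cells, rose from 4.68 to 165.3 CPM (interval 162.5 to 168.1). Mfge8, a bridging protein for dying cells that is also a Langerhans cell marker, rose from 459.9 to 2188 CPM. Among 31 listed genes of dying-cell uptake and lipid scavenging, 13 were compared. Timd4, Mfge8, the fatty acid carrier Fabp5 (11.03 to 89.8 CPM) and the scavenger receptor Lrp1 (17.8 to 67.3 CPM) rose. The cholesterol exporters Abca1 (106.8 to 19.1 CPM) and Abcg1 (351.3 to 140.1 CPM), the lipid carrier Apoe (378.6 to 158.7 CPM) and the engulfment adaptor Elmo1 (1232 to 608.9 CPM) fell, Elmo1 only just (log2 change −1.01, and −0.90 under TMM scaling). At 2-fold the list thus held as many members up as down. Of the 13, 8 lay above 0 and 5 below, with a median of 0.52.

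Receptors for antibodies and related immune receptors rose or stayed. Of 12 compared, 5 rose and none fell, with a median log2 change of 0.96. Fcgr2b, the inhibitory IgG receptor, went from 80.0 to 248.1 CPM, and Fcgr3, an activating one, from 32.2 to 75.2 CPM. Cd300c2 went from 40.8 to 141 CPM, Pirb from 11.2 to 29.5 CPM, and Cd300a from 49.6 to 105.8 CPM. Tyrobp, the signalling adaptor that many of these receptors share, stood at 545.4 and 1044 CPM, short of the 2-fold rule (log2 change 0.93, and 1.04 under TMM scaling).

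C-type lectins, the sugar-binding receptors to which langerin belongs, showed both directions. Mgl2 stood at 53.7 CPM (52.4 to 55.0) and, after croton oil, at 330.4 CPM (326.4 to 334.4), and the mannose receptor Mrc1 rose from 0.336 to 52.3 CPM. Clec4n, a receptor for fungal mannans, rose from 17.6 to 64.9 CPM, while Cd209a, a DC-SIGN family member, fell from 22.9 to 2.81 CPM. Of 14 compared members these 3 rose and 1 fell. In the microneedle library Mgl2 was at 15.4 CPM, below the untreated level, and Mrc1 at 1.88 CPM, above the untreated and below the croton oil level.

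Chemokines formed the list with the highest median over the compared genes, and among inflammatory cytokines Il1b rose and Tnf fell. Il1b, the cytokine cut and released by the inflammasome, stood at 72.3 CPM (70.8 to 73.8) and, after croton oil, at 686.8 CPM (681.1 to 692.5), and the share of cells with it was 9.22% and 43.6%. Cxcl2, which attracts neutrophils, rose from 233.2 to 1219 CPM, and Cxcl1, with the same receptor, from 17.1 to 111.8 CPM. Ccl3 went from 0.429 CPM (51 UMIs) to 31.0 CPM and Ccl4 from 3.75 to 36.7 CPM; both are chemokines that attract monocytes and T cells. Cxcl16, a membrane-bound chemokine, rose from 303.7 to 754.5 CPM. Of 24 listed chemokines 6 were compared, these 5 rose, none fell by the rule, and the median was 2.31. The remaining one, Ccl17, stood at 22.9 and 10.1 CPM, a log2 change of −0.88 with 5 CPM added to each. It was found in 0.206% of thinned untreated and 1.39% of thinned croton oil cells. With no minimum level the list's median was 0.18 and no longer the highest. Neutrophils of the same library carried Il1b in 73.3% and Cxcl2 in 90.5% of thinned cells and keratinocytes in 4% and 8%, and both genes passed the free-RNA rule against all 3 cell types. Ccl3 and Ccl4 were far higher in neutrophils of that library, at 1143 and 767.8 CPM and in 69.8% and 38.8% of thinned cells, against 3.68% and 3.14% of the Langerhans cells. Of 10 compared genes of the interleukin-1 family and inflammasome, Il1b and the inflammatory caspase Casp4 (13.6 to 37.7 CPM) rose and none fell, and the median was 0.14. Tnf fell from 611.1 to 271.3 CPM. The anti-inflammatory cytokine Il10 rose from 0.976 to 30.6 CPM, and Il15, a survival factor for T and natural killer cells, fell from 62.4 to 12.9 CPM.

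**Figure D2:**
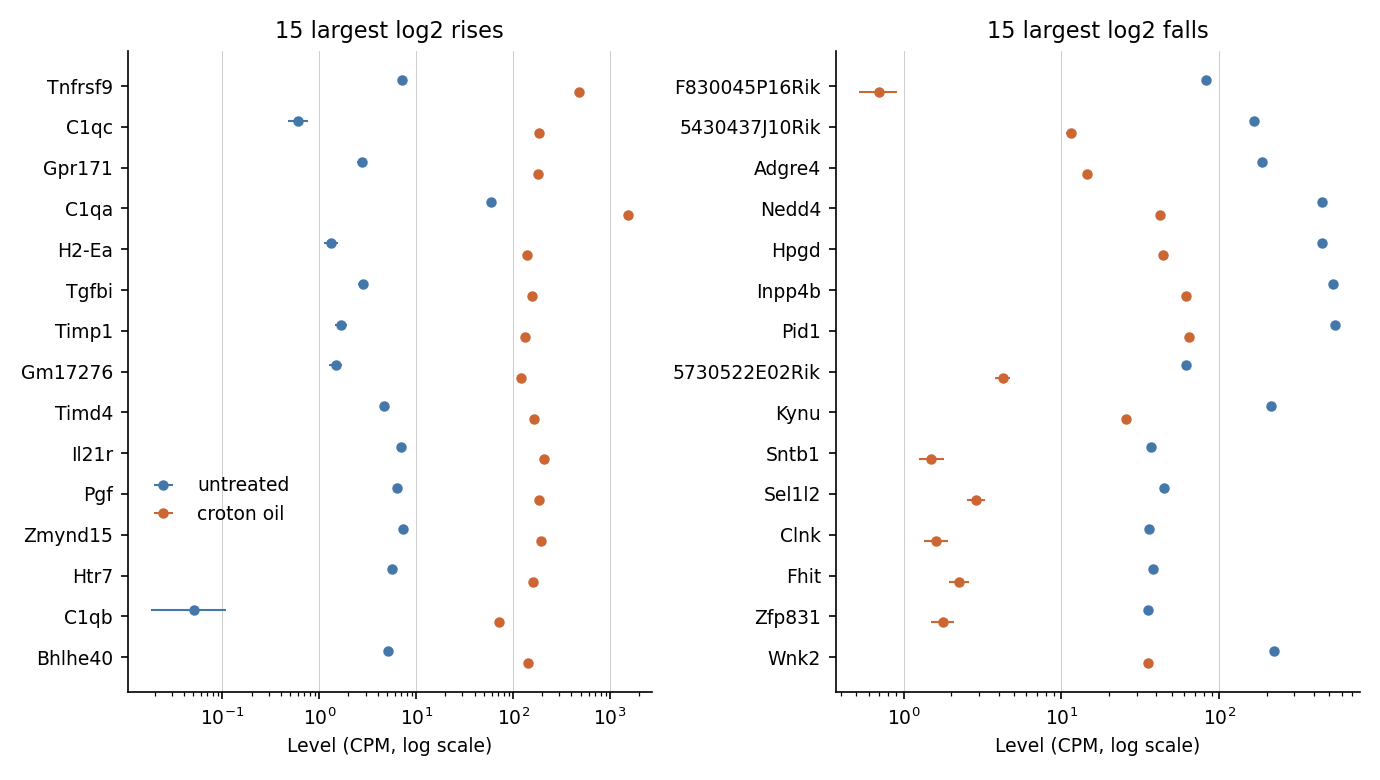
Level of the 15 genes with the highest (left) and the 15 with the lowest (right) log2 change, in CPM on a log axis, for untreated (blue) and croton oil (orange) Langerhans cells; bars are exact 95% Poisson intervals, which cover counting error only and are narrower than the points for most genes. The levels of each gene in the 2 libraries lie far apart, from Tnfrsf9 (7.21 and 473.6 CPM) to Bhlhe40 on the left and from F830045P16Rik (82.8 and 0.694 CPM) to Wnk2 (222 and 35.2 CPM) on the right.

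Receptors on the cell surface held the gene with the largest log2 change at a pseudocount of 5 CPM; with 1 CPM, C1qc (6.85), C1qb (6.11) and H2-Ea (5.91) stood above it (5.85). Tnfrsf9, a costimulatory receptor of the TNF receptor family, went from 7.21 CPM (6.73 to 7.71) to 473.6 CPM (468.9 to 478.4), a log2 change of 5.29. The share of thinned cells with a Tnfrsf9 UMI was 1.86% (1.60 to 2.16) in untreated and 53.6% (52.3 to 54.9) in croton oil cells. In the same library 7.2% of keratinocytes and 45.5% of T cells, which are known to use this receptor, had a UMI. The T cell receptor genes Trbc1, Trbc2 and Trdc in the Langerhans cells were each under 1 CPM, and Tnfrsf9 passed the free-RNA rule.

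Several G protein-coupled receptors changed in opposite directions. Gpr171 rose from 2.77 to 179.5 CPM and Htr7, a serotonin receptor, from 5.59 to 162 CPM. Gpr183, the receptor for oxysterols that positions immune cells, rose from 100.0 to 853.2 CPM and from 13.3% to 79.8% of thinned cells. Adgre4, an adhesion-type receptor of myeloid cells, fell from 186.3 to 14.5 CPM. Of 24 compared receptors in the list, 8 rose and 4 fell.

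Of 16 compared cytokines and cytokine receptors, 4 rose and 1 fell; besides Il10 and Il15 these were Il21r, Il7r and the shared receptor chain Il2rg (6.45 to 32.1 CPM). Il21r went from 7.02 to 206.2 CPM and Il7r, one chain of the interleukin-7 receptor, from 217.4 CPM (214.7 to 220) to 923.9 CPM (917.3 to 930.6). Csf2rb, the shared signalling chain for GM-CSF, interleukin-3 and interleukin-5, rose from 181.6 to 457.9 CPM. Csf1r, on which Langerhans cells depend, stood at 303.4 and 605.5 CPM, a log2 change of 0.98 that passes 2-fold under TMM scaling (1.10). Ccr1, the receptor for Ccl3, rose from 5.16 to 80.3 CPM. Socs3 and Pim1, feedback genes of cytokine signalling, rose from 23.7 to 110.1 and from 262.2 to 578.9 CPM, and they were the only 2 of 16 compared members of the JAK-STAT feedback list that did.

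Secreted growth factors, proteases and their inhibitors changed in several ways. Pgf, a ligand of the VEGF receptor Flt1, rose from 6.30 to 183.4 CPM, and Vegfa from 14.4 to 64.9 CPM. Nrg1, a ligand of ErbB receptors, rose from 4.07 to 68.1 CPM, and Metrnl from 33.9 to 78.4 CPM. Timp1, an inhibitor of matrix metalloproteinases, rose from 1.67 to 131.4 CPM, while the metalloproteinase Mmp9 fell from 152 to 23.9 CPM. The urokinase receptor Plaur rose from 11.6 to 102.2 CPM, and Tgfbi, a matrix protein induced by TGF-beta, from 2.80 to 157.6 CPM. Tgfbi had a UMI in 60% of thinned keratinocytes of the croton oil library, at 342.8 CPM there. Pmepa1, a target and inhibitor of TGF-beta signalling, rose from 2.22 to 92.8 CPM and was the only 1 of 13 compared members of that list to change 2-fold, the receptor Tgfbr1 standing at 246.4 and 175.1 CPM.

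Prostaglandin genes held 1 of the 5 lowest log2 changes. Hpgd, which inactivates prostaglandins, fell from 447.3 CPM (443.5 to 451.2) to 44.0 CPM (42.6 to 45.5). Ptgs2, the inducible cyclooxygenase, which makes their precursor, rose from 1.99 to 22.8 CPM. The prostaglandin E2 receptors Ptger4 (95.4 to 36.7 CPM) and Ptger3 (67.9 to 29.2 CPM) fell, Ptger4 to a log2 change of −0.98 when Ccr7-positive cells were kept and Ptger3 to −0.99 under TMM scaling. Of 12 compared eicosanoid genes 1 rose and 3 fell.

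Genes of antigen presentation other than those used to choose the cells changed little, with a few exceptions. Among 19 compared genes of the MHC class I pathway 1 rose, the immunoproteasome subunit Psmb10 (13.4 to 40.4 CPM), and B2m stood at 730.8 and 467.4 CPM. Marchf1, the ubiquitin ligase that takes MHC class II and Cd86 off the surface, fell from 350 to 116.1 CPM. H2-DMb2, part of the peptide-loading chaperone, rose from 129.7 to 268.7 CPM, a log2 change of 1.02 that drops to between 0.98 and 0.998 under 4 of the alternatives tried. H2-Ea, the alpha chain of a second class II molecule, went from 1.33 CPM (1.13 to 1.55) to 139.3 CPM (136.7 to 141.9), and it was at 1.51 CPM in the microneedle library. Several H2 haplotypes of laboratory mice carry a disabled H2-Ea gene, and in an outbred stock the genotype of the animals and the treatment cannot be told apart for this gene.

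The proteases that prepare antigen in endosomes were higher in part: Ctsz (112.3 to 323.2 CPM), Ctsa (60.7 to 173.2 CPM), Lgmn (63.2 to 142.7 CPM) and the inhibitor Cstb (83.0 to 305.5 CPM) rose among 12 compared cathepsins and inhibitors. None of the 12 fell, and the inhibitor Cst3, the most abundant, stood at 6127 and 9854 CPM.

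Costimulatory molecules did not move as a group. Cd80 rose from 52.4 to 287 CPM, and Cd83, a maturation marker, fell from 1577 to 676.4 CPM. Cd86, the most abundant of them, stood at 4517 and 3958 CPM. With Tnfrsf9, 2 of 11 compared members rose and 1 fell. Of 15 compared genes of the migratory dendritic cell programme other than Ccr7, Zmynd15 (7.35 to 192.7 CPM) and the tetraspanin Cd63 (303 to 1494 CPM) rose and Cd83 and Birc3 fell, with a median of −0.38 that became 0.76 when the Ccr7-positive cells were kept. Of 9 markers of migratory or mature dendritic cells other than Ccr7, 6 were higher after croton oil, among them Fscn1 (79 and 195 UMIs), Socs2 (1.27 and 13.97 CPM) and Cacnb3 (0.463 and 8.05 CPM), while their summed level was 452.1 and 429.7 CPM. Birc3 fell from 730.3 to 341.7 CPM, short of 2-fold under TMM scaling (−0.97).

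**Figure D3:**
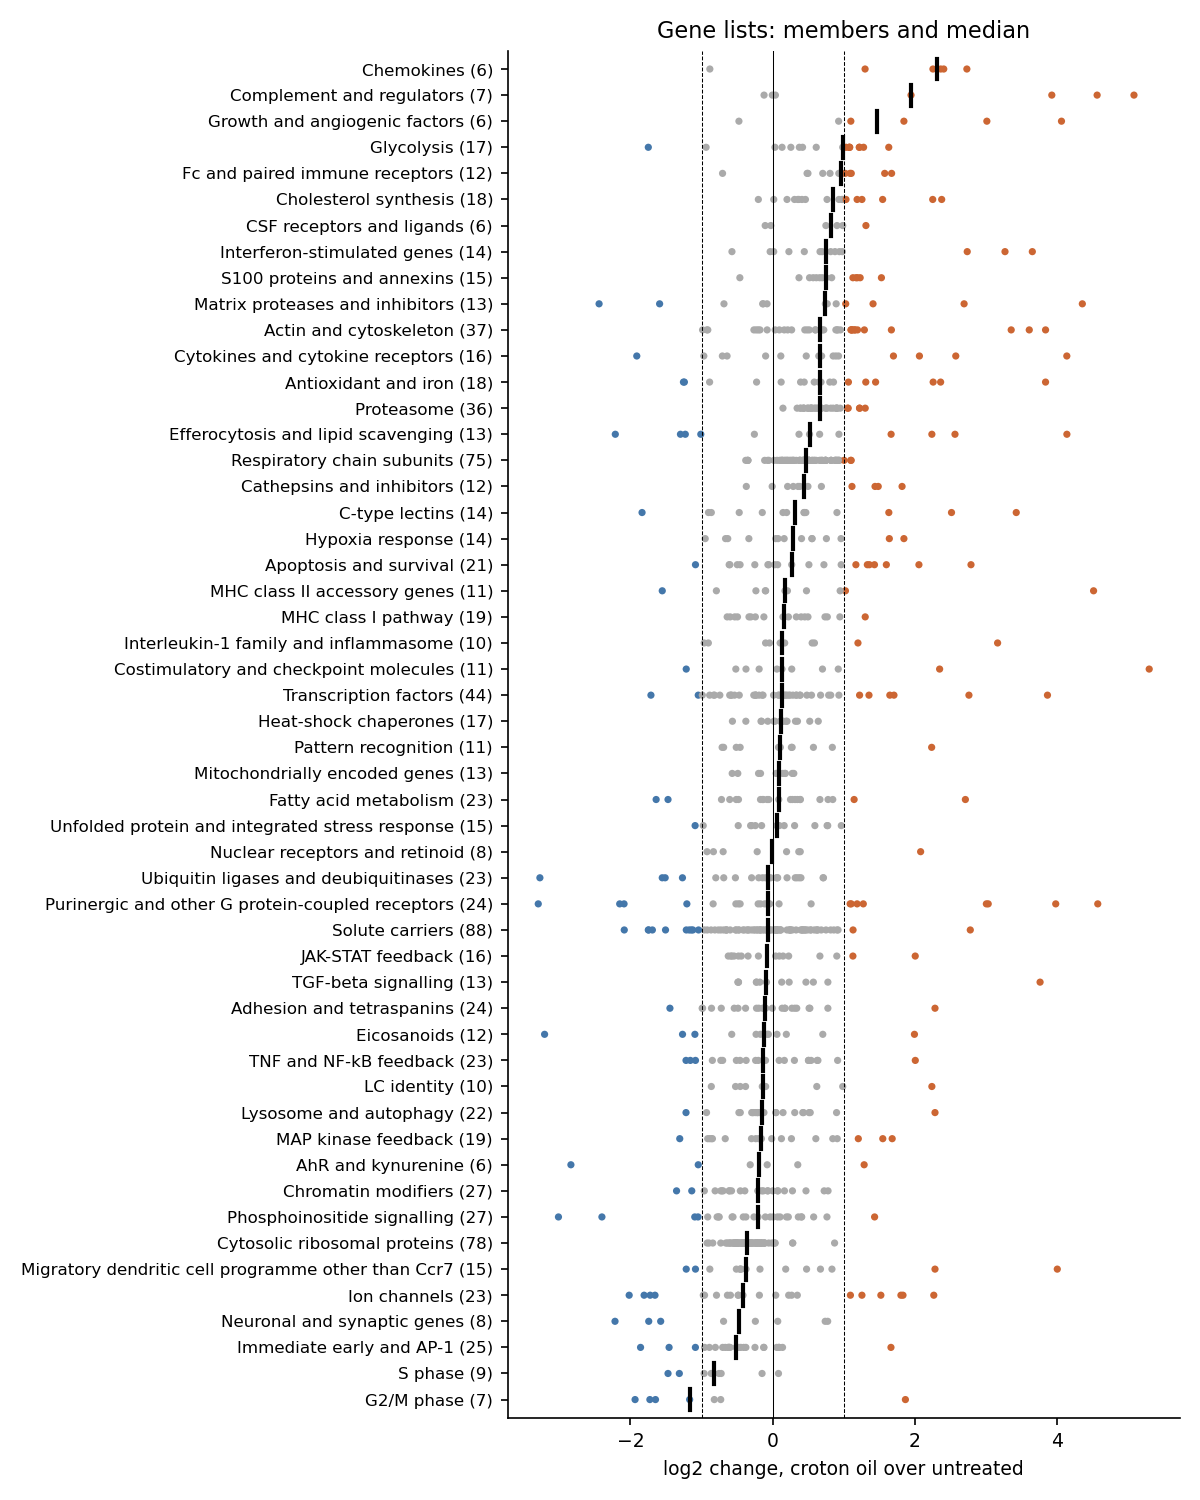
log2 change of each compared gene of the gene lists with at least 6 compared members (number in brackets); orange points rose and blue points fell at least 2-fold, black bars are medians, and dashed lines mark 2-fold. Chemokines (median 2.31) and complement (1.95) are at the top, S phase (−0.83) and G2/M phase genes (−1.17) at the bottom, and lists such as transcription factors reach past 2-fold on both sides.

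Immediate early genes were lower after croton oil. Their summed level was 2.49% of UMIs in untreated and 1.65% in croton oil cells. Jun fell from 1893 CPM (1885 to 1900) to 518.8 CPM (513.9 to 523.8), Fosb from 2833 to 1332 CPM and Klf2 from 199.5 to 69.5 CPM, Fosb short of 2-fold under TMM scaling (−0.97). Fos stood at 3460 and 2664 CPM and Atf3 at 2515 and 1294 CPM, neither past 2-fold. Nr4a2 rose from 115 to 375 CPM. Of 25 compared members 1 rose and 3 fell, and 20 lay below 0, with a median of −0.51.

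Feedback genes of NF-kB and MAP kinase signalling moved singly. Of 23 compared TNF and NF-kB genes, the adaptor Traf1 rose (4.45 to 32.9 CPM) and Tnf, Birc3 and Tnip1 (235.9 to 98.6 CPM) fell. The MAP kinase phosphatases Dusp4 (12.2 to 50.1 CPM) and Dusp5 (73.1 to 223.2 CPM) and the ErbB inhibitor Errfi1 (142.2 to 334.2 CPM) rose, and Dusp10 fell from 66.8 to 24.0 CPM. Map4k4, a kinase upstream of JNK, had one of the largest rises in level, from 774.8 to 3024 CPM.

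Of 44 compared transcription factors 6 rose and 2 fell. Bhlhe40, a repressor that follows cytokine signals in myeloid cells, rose from 5.12 to 142.2 CPM. Zeb2 rose from 1.77 to 40.8 CPM and the transcriptional repressor Prdm1 from 49.3 to 172.2 CPM. Mef2c fell from 57.05 to 13.96 CPM. Ahr, the receptor for dioxins and tryptophan products, fell from 398.3 to 190.4 CPM (log2 change −1.05, and −0.94 under TMM scaling), while its repressor Ahrr rose from 192.8 to 477.5 CPM. Kynu, kynureninase of tryptophan breakdown, fell from 213 to 25.5 CPM, so the 6 compared genes of that list held 1 that rose and 2 that fell. Ppard, a lipid-sensing nuclear receptor, rose from 22.1 to 109.6 CPM.

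Interferon-stimulated genes were led by the membrane proteins of the Ifitm family. Ifitm2 rose from 172 to 2216 CPM and from 36.1% to 96.6% of thinned cells, and Ifitm1 from 1.45 to 57.0 CPM. In the croton oil library Ifitm2 was also found in 84.8% of keratinocytes, at 528 CPM, below its level in the Langerhans cells, and in 98.3% of neutrophils, at 2877 CPM, above that level. Ly6a rose from 4.26 to 56.6 CPM, and 80% of thinned keratinocytes had a Ly6a UMI. Of 41 listed genes only 14 reached the level needed for comparison, and these 3 rose and none fell.

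Metallothioneins, small proteins that bind zinc and copper, rose together. Mt1 went from 178.9 CPM (176.5 to 181.3) to 939.9 CPM (933.2 to 946.6) and Mt2 from 4.34 CPM (3.97 to 4.73) to 128.4 CPM (126 to 130.9). In the microneedle library Mt1 was at 383 and Mt2 at 21.4 CPM, between the other libraries. Keratinocytes of the croton oil library had more of both, 3057 CPM of Mt1 and 1610 CPM of Mt2, and both genes passed the free-RNA rule. The promoters of the pair are shown because metallothionein promoters are known for metal response elements, to which the zinc-sensing factor Mtf1 binds, and because the genes moved together. The sequences are from RefSeq, build GRCm38.p6, plus strand, and run 5′ to 3′ from 250 bases before to 50 bases after the gene's start, with Mt1 at chr8:94178839-94179138 and Mt2 at chr8:94172368-94172667. Capitals mark matches to TGCACNC or TGCGCNC on either strand.
Mt1: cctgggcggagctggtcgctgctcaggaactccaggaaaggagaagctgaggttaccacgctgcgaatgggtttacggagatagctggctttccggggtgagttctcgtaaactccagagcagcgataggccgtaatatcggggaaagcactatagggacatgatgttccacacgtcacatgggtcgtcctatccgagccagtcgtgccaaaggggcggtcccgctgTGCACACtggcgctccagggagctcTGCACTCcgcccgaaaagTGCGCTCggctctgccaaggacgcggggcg
Mt2: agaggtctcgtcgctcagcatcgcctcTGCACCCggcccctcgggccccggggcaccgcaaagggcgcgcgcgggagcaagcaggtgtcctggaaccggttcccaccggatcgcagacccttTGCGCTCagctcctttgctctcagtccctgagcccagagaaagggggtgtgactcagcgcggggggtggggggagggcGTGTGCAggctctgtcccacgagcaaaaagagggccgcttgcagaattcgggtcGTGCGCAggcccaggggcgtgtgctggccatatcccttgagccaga
The Mt1 window holds 3 matches and the Mt2 window 4. At least 1 match was found in 25.7% of the 32851 promoter windows of the table and at least 3 in 1.97%. Among the 6984 windows of compared genes, which cover only 79.17% of those genes, 36.2% held at least 1 match. A match is a run of letters and not a site shown to be bound, and the motif was added after the metallothionein values were seen.

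Iron and redox genes followed in part. Fth1, the heavy chain of the iron store ferritin, rose from 2079 to 5677 CPM, while the transferrin receptor Tfrc, which brings iron in, fell from 97.1 to 38.2 CPM. Gpx1, a glutathione peroxidase, rose from 60.5 to 307.7 CPM and thioredoxin Txn1 from 171.4 to 432.1 CPM. Gclc, the first enzyme of glutathione synthesis, fell from 184.4 to 74.4 CPM. Of 18 compared genes 6 rose and 2 fell, and the summed level of all 26 listed genes was 2.18-fold higher.

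The actin cytoskeleton list was higher after croton oil, with 12 of 37 compared members up and none down. Myo10, the motor of filopodia, rose from 40.3 CPM (39.2 to 41.5) to 641.7 CPM (636.2 to 647.3). The actin-severing protein Scin rose from 17.3 to 266.3 CPM and the capping protein Capg from 10.3 to 151.3 CPM. Actb itself rose from 2741 to 6707 CPM, the largest gain in level of any gene that the naming rule considers, and Vim from 2484 to 5536 CPM. Tmsb4x, the most abundant member in untreated cells, stood at 5617 and 5995 CPM. Summed, the list held 2.07% of UMIs in untreated and 3.43% in croton oil cells. On the list of calcium-binding S100 proteins and annexins, which also holds galectins, 5 of 15 compared members rose and none fell, and no annexin was among them. These were S100a4 from 1368 to 3215, S100a6 from 1850 to 4050, S100a10 from 389 to 1132, Lgals1 from 551.5 to 1266 and Lgals3 from 530.8 to 1203 CPM.

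Metabolic genes rose in part of their lists. Of 17 compared glycolysis genes 8 rose, among them Eno1 (33.3 to 113.7 CPM), Gapdh (272.8 to 642.8 CPM) and Pkm (187.1 to 441.5 CPM). The glucose transporter Slc2a3 fell from 38.3 to 7.90 CPM. The median of the list, 0.98, lies so near 2-fold that 5 alternatives carry it past. Of 18 compared genes of cholesterol synthesis and its control 6 rose and none fell, led by Fdps (21.8 to 134.2 CPM) and Pmvk (110.3 to 543.6 CPM), which act early in the pathway; squalene epoxidase Sqle went from 18.6 to 63.9 CPM. Scd1, which desaturates fatty acids, rose from 14.6 to 123.3 CPM, while the elongase Elovl5 fell from 1173 to 419.9 CPM and was at 1285 CPM in the microneedle library.

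Most genes of the large complexes stayed short of 2-fold, and the complexes differed in the sign of their medians. All 36 compared proteasome genes lay above 0, between 0.14 and 1.30, although only 5 passed 2-fold, Psmb10, Psmb3 (116.3 to 278.2 CPM), Psmc4 (40.9 to 102 CPM), Psma2 (110.8 to 236.7 CPM) and Psmb5 (71.8 to 154.5 CPM). Of 75 compared respiratory chain genes 68 lay above 0 and 3 rose, Ndufa11 (48.3 to 109.6 CPM), Cox5a (127.4 to 278.2 CPM) and Ndufv3 (48.2 to 101.7 CPM), the last at a log2 change of 1.00 that dropped to between 0.976 and 0.998 under 3 alternatives. Cytosolic ribosomal protein genes lay below 0 in 72 of 78 cases, none past 2-fold, with a median of −0.36 (−0.25 under TMM scaling), and their summed share was 11.1% of UMIs in untreated and 8.64% in croton oil cells. The 13 mitochondrially encoded genes had a median of 0.09, with 9 above and 4 below 0, and none passed 2-fold.

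**Figure D4:**
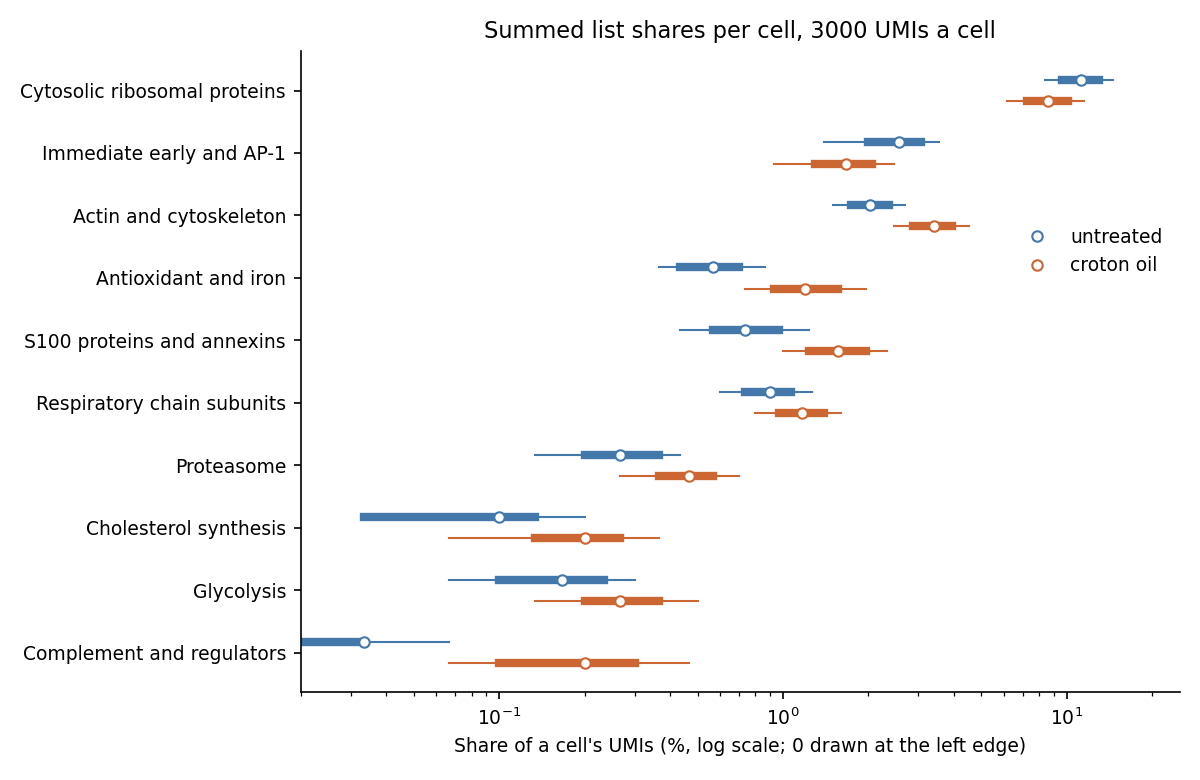
Share of a cell's UMIs held by each of 10 gene lists in Langerhans cells thinned to 3000 UMIs, on a log axis, for untreated (blue, 9245 cells) and croton oil (orange, 5838 cells); open circles are medians over cells, thick lines the middle 50% of cells and thin lines the 10th to 90th percentile. The median cell held 0.0333% complement list UMIs in the untreated and 0.2% in the croton oil library, and 11.2% and 8.57% ribosomal protein UMIs, so the shifts are seen in the bulk of cells.

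Cell by cell, the summed shares of these lists differed in level over much of the population, while single genes such as Ccl3 (3.68% of thinned croton oil cells) and Ccl4 (3.14%) were detected in a minority of cells. With 3000 UMIs per cell, the median share of the actin list was 2.03% in untreated and 3.40% in croton oil cells, and the 90th percentile of untreated cells, 2.70%, lay under the 25th percentile of croton oil cells, 2.87%. The median share of the antioxidant and iron list was 0.567% and 1.20%. No complement UMI was found in 44.0% of untreated and 2.59% of croton oil cells. Cells are not replicates, and these percentiles describe 1 library each.

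Cell cycle genes fell where they changed, with 1 exception. Top2a, which untangles chromosomes, fell from 38.1 to 6.28 CPM, Kif11 from 22.3 to 3.25 CPM and Kif23 from 43.4 to 10.5 CPM. Cenpa, the centromere histone, rose from 34.2 to 137.7 CPM against the other members. Of 7 compared G2/M genes 4 fell and 1 rose, and of 9 compared S phase genes 2 fell, E2f8 (24.4 to 5.59 CPM) and Chaf1b (32.4 to 10.1 CPM). Cells were scored as cycling at 3 or more UMIs of Mki67, Top2a, Cenpf, Ube2c, Birc5 and Ccnb1 together. They made up 9.995% of untreated and 6.78% of croton oil cells. With them left out, Top2a no longer passed 2-fold (−0.64), but the score itself uses Top2a, so its drop was built in. Survival genes of the Bcl2a1 family rose, Bcl2a1b from 48.8 to 366.9 CPM, but its copies Bcl2a1a, Bcl2a1b and Bcl2a1d are so alike that reads may be split between them. The death-promoting Bcl2l11 (Bim) rose as well, from 60.6 to 171.8 CPM, and 7 of 21 compared genes of apoptosis and survival rose and 1 fell.

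The genes that fell furthest belonged to varied kinds. F830045P16Rik went from 82.8 to 0.694 CPM (log2 change −3.95). Nedd4, a ubiquitin ligase of membrane proteins, had 449.2 CPM (445.4 to 453.1) in untreated but 42.0 CPM (40.6 to 43.5) in croton oil cells, and 4 of 23 compared ubiquitin ligases and deubiquitinases fell, with Marchf1, Peli1 (987.7 to 343.2 CPM) and Rnf144b (29.6 to 9.38 CPM) as the others. Inpp4b, a phosphatase of phosphoinositides, fell from 529.9 to 61.4 CPM, and Pid1, an adaptor known for dampening insulin signalling, from 545.4 to 64.3 CPM.

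Of 8 compared neuronal and synaptic genes 3 fell and none rose: the synaptic scaffold Dlg2 went from 58.6 to 8.69 CPM, and Nav2 and Dlgap1 were the others. Outside this list, the calcium channel Cacna1e fell from 1061 to 333.8 CPM and the protocadherin Pcdh7 from 1292 to 320.8 CPM. Among 23 compared ion channels 6 rose and 4 fell, so the direction was not shared: Cacna1a rose from 6.92 to 52.3 CPM. Of 88 compared solute carriers 10 fell and 2 rose, the serotonin transporter Slc6a4 falling from 32.2 to 3.76 CPM and the amino acid carrier Slc7a8 and the sodium-calcium exchanger Slc8a1 rising from 6.92 to 76.8 and from 379 to 835.5 CPM.

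Counted by share of cells, 534 genes (7.83%) were found in a share at least 10 percentage points higher after croton oil and 530 (7.77%) in a share as much lower. At 3000 UMIs the largest gains after C1qa were those of Gpr183, Ifitm2, Sdc4 (23.8% to 77.7%), Rhoq (10.7% to 64.1%), Tnfrsf9, Crip1 (24.8% to 76.3%) and Mt1 (34.3% to 83.2%). Of these, Sdc4 was also found in 62.4% of thinned keratinocytes, Crip1 in 40% of keratinocytes and 82.9% of T cells, Rhoq in 69.9% of T cells and Mt1 in 93.6% of keratinocytes of the same library. The largest losses were those of Nedd4 (70.5% to 10.8%), Hpgd (65.7% to 9.06%), Inpp4b (67.7% to 12.4%) and Pid1 (70.0% to 14.8%). Pde4d, Lrba, Pcdh7 and Cacna1e followed, each found in over 80% of untreated and under 50% of croton oil cells. Without thinning, the shares of C1qa were 41.6% and 98.3% and those of Nedd4 96.9% and 31.7%. The order then changed: C1qa gained 56.7 points, less than, among others, Gpr171 (74.3), Tnfrsf9 (70.8) and Gpr183 (70.1), and Ifitm2 gained 30.6. Medians of the reference cells of the croton oil library before thinning were 43910 UMIs for keratinocytes, 3247 for neutrophils and 6200 for T cells, and 125, 116 and 123 of these cells reached 3000 UMIs.

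**Figure D5:**
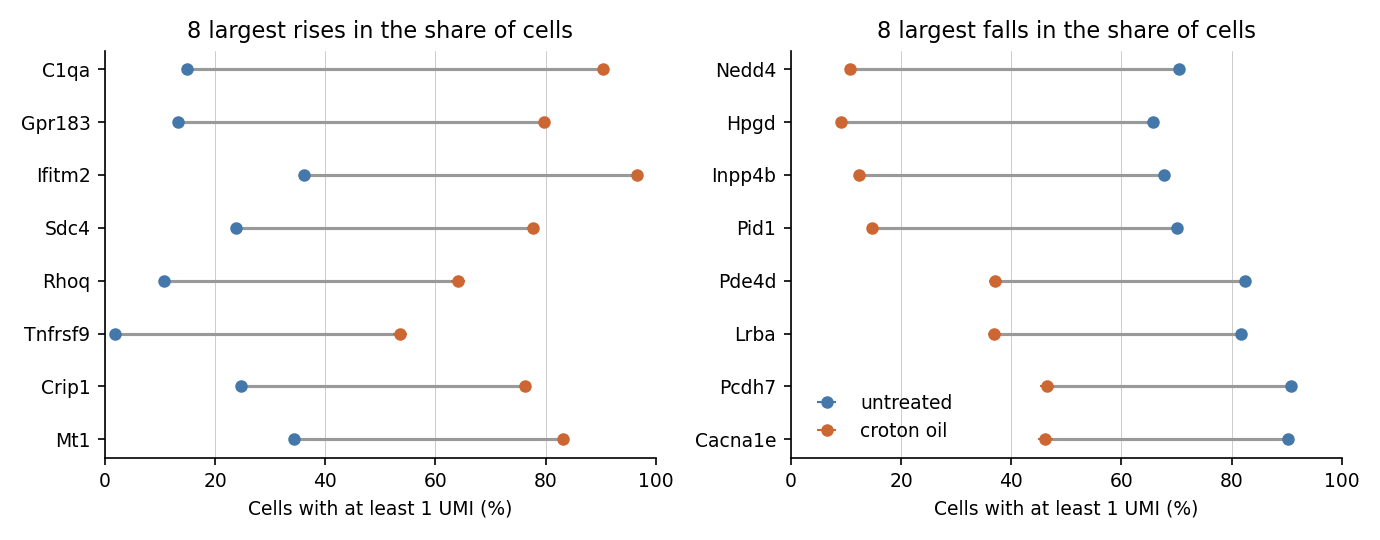
Share of Langerhans cells with at least 1 UMI, in percent of cells thinned to 3000 UMIs, for the 8 genes with the largest rise (left) and the 8 with the largest fall (right); blue points are untreated, orange points croton oil, grey lines join the libraries, and the exact 95% intervals lie mostly within the points. C1qa went from 15.0% to 90.4% and Nedd4 from 70.5% to 10.8%.

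Within the croton oil cells, genes that rose were detected in cells with and without each other. C1qa was found in 90.1% of the 3127 thinned cells with a Tnfrsf9 UMI and in 90.7% of the 2711 without. Timd4 was found in 34.4% (32.7 to 36.1) of the cells with Tnfrsf9 and in 22.2% (20.7 to 23.8) of those without, and Mgl2 in 49.0% and 38.3%. C1qc went the other way, with 31.4% (29.8 to 33.1) and 37.7% (35.9 to 39.6). Nedd4 was found in 9.08% and 12.7%. At this depth a gene of low level is missed in many cells that carry it, so these shares describe detection and not the presence of a gene.

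The microneedle library, prepared at the same time point and chosen by the same rule (5462 cells), placed some of these genes apart. Tnfrsf9 was at 67.3 CPM there and C1qa at 488.1 CPM, between untreated and croton oil. Il21r was at 222.2 CPM, Rhoq at 563.2 CPM and Tgfbi at 178.6 CPM, each above its croton oil level. H2-Ea, Mgl2 and Mrc1 were high in the croton oil library alone of the 3. Lsamp, a neuronal adhesion molecule, had its highest level, 328.9 CPM, after croton oil and its lowest, 89.1 CPM, after microneedling, with 190.3 CPM in untreated cells. Among the genes that fell, Hpgd was at 89.1 CPM, Pid1 at 161.2 CPM and Nedd4 at 177.2 CPM, between the other libraries. Both treatments are set against the same untreated library, so a value peculiar to that library would appear in both, and with 1 library each no difference between the treatments could be tested.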

How the data were processed

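Single-cell libraries had been made with the Chromium Next GEM Single Cell 3' chemistry, per the labels. The deposited values are raw UMI counts per gene and barcode, which the authors produced against the GRCm39 build, per the submitters' processing notes; they are whole numbers and not normalized. Per the file headers the matrices came from Cell Ranger 8.0.0. A count of reads near the transcript's 3' end says nothing of the rest of the transcript.

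Counts were summed over the cells chosen in each library and expressed as CPM. Genes with at least 20 CPM in either library were compared with a pseudocount of 5 CPM. Shares of cells were taken after random thinning to 3000 UMIs, which left out 100 untreated and 30 croton oil cells below that depth. Scrublet, in scanpy 1.11.5, marked 2, 0 and 0 cells as doublets, too few to have worked, so doublets were kept, and an alternative removed the 773, 532 and 376 top scores. Reference cells for free RNA had at least 1% of UMIs from keratins or S100a8 and S100a9, or 3 Cd3 UMIs, and under 0.5% from class II genes. TMM factors came from edgeR 4.0.16, which was used for no test; other values came from Python 3.11.15, numpy 2.4.6, scipy 1.17.1 and pandas 2.3.3. The comparison was tested on simulated data.

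Genes were named by rule: the 15 highest and 15 lowest log2 changes, the 8 largest rises and falls in level and in share, and of each list up to 4 members of largest change and 2 of highest level. Members outside the rule are named where they complete a count of 5 or fewer; these and Txn1 were chosen after their values were seen. Some genes that the rule names are not reported here. The cells, members and lists were chosen with earlier results of these data known. The alternatives changed the scaling, pseudocount, minimum level, depth, doublets, Ccr7, Cd207, cycling and Epcam rules. A comparison of promoter motifs between gene sets was void, because the promoter table matched only 79.17% of the compared, 77.72% of the higher and 70.67% of the lower genes. Coordinates of genes are from GENCODE M39. Each library is 1 replicate.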

Additional observations from a re-analysis of the deposited data

Results flagged for a closer look

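The feature lists hold 4 transgene sequences that no label mentions and that no comparison above used. In the Langerhans cells, mCherry had 144 UMIs in the untreated, 396 UMIs in the croton oil and 200 UMIs in the microneedle library, and it stands here because it is a signal in features outside the main measurement that was above the untreated level. The eGFP sequence had its fewest UMIs in the croton oil library, with 176, 53 and 149 in the same order, and tdTomato and creER had 0 in all 3 libraries. Where these UMIs come from was not tested.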

How the results depend on the processing

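No paired analysis was possible because each group is 1 library, and no replicate could be left out for the same reason. Over 14 alternatives, the counts of genes that rose (278 to 491) and fell (228 to 478) stayed within 1.5 times the main ones, except that only 228 fell among genes with at least 50 CPM, where fewer genes are compared. No named gene or list turned its direction past the 2-fold rule. Of the changes of named genes under the alternatives, 3391 stayed on their side of 2-fold, 48 passed it and 17 dropped below it. Differences in the share of cells depended on depth: 52 of 54 moved beyond their counting interval without thinning and 51 of 54 at 6000 UMIs, Gpr171 from 37.5 to 74.3 points and F830045P16Rik from −21.5 to −57.2 points without thinning. The glycolysis median passed 2-fold at 1.104 under TMM scaling, 1.081 with a pseudocount of 1 CPM, 1.054 at 50 CPM, 1.004 without the highest doublet scores and 1.031 in cells with a Cd207 UMI, and that of Fc receptors at 1.072 under TMM scaling. The G2/M median dropped to −0.7751 at 50 CPM, −0.8478 with no minimum, −0.9226 in thinned cells, −0.9522 as a mean of cells, −0.8357 without cycling cells and −0.9216 in cells of 5000 to 20000 UMIs. The cycling score uses Top2a, a member of that list. With no minimum level, which adds genes near 0, the medians were 0.05825 for complement, 0.1844 for chemokines, 0.02805 for chemokine receptors and 0.0385 for growth factors. The alternative without the Epcam rule was chosen after seeing the data and gave 371 and 378. Under TMM scaling 6 list medians near 0, among them those of TGF-beta signalling and solute carriers, turned from below to above 0. At 50 CPM the median of matrix proteases and inhibitors turned from 0.74 to −0.08, that of fatty acid metabolism from 0.09 to −0.11, that of lysosome and autophagy from −0.16 to 0.04 and that of JAK-STAT feedback from −0.08 to 0.15. With no minimum, those of AhR and kynurenine (from −0.20 to 0.03), TGF-beta signalling, JAK-STAT feedback, nuclear receptors, G protein-coupled receptors and the migratory programme turned to just above 0. Genes of a few UMIs in untreated cells, such as C1qb, have wide intervals, and with 1 library per group the spread between animals is unknown.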

Other observations

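Gene length, looked at after the gene values had been seen, went along with direction. The median span from start to end in GENCODE M39 was 32.7 kb for all compared genes, 18.6 kb for those that rose and 58.0 kb for those that fell. Of genes spanning under 10 kb, 10.1% rose and 4% fell, with a median log2 change of 0.34. Of genes spanning 100 kb or more, 5.22% rose and 10.2% fell, with a median of −0.28. The median was 0.13 from 10 to 30 kb and −0.17 from 30 to 100 kb, so it was ordered over the 4 length classes. The shares were not: in these middle classes 5.32% and 3.27% rose and 3.28% and 5.80% fell. Inpp4b spans 785.4 kb, Pid1 328.2 kb and Pcdh7 415.6 kb, while C1qa spans 2.94 kb and Ifitm2 1.49 kb. Other named genes went against this order: Jun (3.19 kb) and Klf2 (2.78 kb) fell, and Myo10 (191.1 kb) and Map4k4 (127.2 kb) rose. Whether reads in introns were counted is not given in the sources used here.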
